A study of Mus musculus with 16 samples.

Results

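The genes described here encode the enzymes that build and sulfate the glycans of the colonic mucosa and of its matrix. They were all genes of the arrays' probe annotation whose symbols name fucosyltransferases, sialyltransferases, galactosyltransferases, N-acetylgalactosaminyltransferases, N-acetylglucosaminyltransferases or carbohydrate and heparan sulfotransferases. The rule took 66 of 11055 annotated genes and used no measured value. A probe was tested when 4 or more of the 16 arrays detected it above their negative controls (p under 0.05 for that detection), which left 61 of the 66 genes. The other genes, B4galt5, Chst14, Fut7, Galnt6 and St6gal2, were not detected on enough arrays.

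RNA of the proximal colon, labelled as smooth muscle, of wild type C57Bl/6 mice was hybridized to Illumina BeadChips, with 4 arrays in each of 4 groups. GF mice were germ-free, and SPF (specific pathogen free) mice carried a conventional microbiota. C/-Lop mice were GF mice gavaged with cecal contents of control donors, and C/+Lop mice were GF mice gavaged with cecal contents of donors that drank 0.1% loperamide, an opioid that slows transit, for 7 days. Both kinds of recipient were studied 4 weeks after colonization. SPF mice were 8 to 10 weeks old, of both sexes, and the GF mice that were gavaged are described as matched to them for age. For the GF group 8 to 10 weeks was taken as well. The paper's methods also give 8 to 10 weeks for GF mice at gavage, whereas its results give an older age. Recipients were sampled 4 weeks after gavage at an age that is not stated separately. The labels number the SPF replicates 1, 2, 13 and 4, and do not say whether each array holds a different animal, so that p-values measure the spread between arrays, which may be technical in part.

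Glycans are assembled in the Golgi by enzymes that each add 1 sugar in a given linkage. O-glycans of mucins start with N-acetylgalactosamine on serine or threonine, are built on core structures, are extended, and are capped with fucose, sialic acid or sulfate. In the colon these chains form most of the mass of mucus and are food and anchor for bacteria. Glycosaminoglycans (chondroitin, dermatan and heparan sulfate) are long sulfated chains on the proteoglycans of matrix and muscle, and several sulfotransferases of the set act on them rather than on mucins.

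The promoters of B3gnt7, Chst12 and Chst8 are shown as examples. B3gnt7 had the largest range of group means, though its GF and SPF arrays overlapped. Chst12 separated SPF from GF arrays, and Chst8 separated recipients from all mice that were not gavaged. Each is the stretch of 250 bases before a transcript start on the strand of the gene, from RefSeq (GRCm38.p6), at chr1:86302971-86303220 on the plus strand for B3gnt7, chr5:140505359-140505608 on the plus strand for Chst12 and chr7:34812712-34812961 on the minus strand for Chst8. For Chst12 the last 40 of these bases lie inside the gene as annotated, which starts upstream of that transcript start, and 1 of its GC boxes is in that stretch. Capitals mark the GC box, GGGCGG or CCGCCC on the other strand.
B3gnt7: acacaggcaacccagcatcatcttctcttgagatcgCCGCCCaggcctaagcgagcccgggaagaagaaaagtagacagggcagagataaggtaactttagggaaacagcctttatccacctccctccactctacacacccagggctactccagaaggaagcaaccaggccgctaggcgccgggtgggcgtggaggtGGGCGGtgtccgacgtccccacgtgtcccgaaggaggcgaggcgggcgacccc
Chst12: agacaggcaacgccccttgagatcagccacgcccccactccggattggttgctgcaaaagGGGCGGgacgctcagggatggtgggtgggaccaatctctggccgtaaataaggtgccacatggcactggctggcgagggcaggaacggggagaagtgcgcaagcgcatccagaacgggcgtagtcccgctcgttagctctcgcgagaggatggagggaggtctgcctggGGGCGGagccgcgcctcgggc
Chst8: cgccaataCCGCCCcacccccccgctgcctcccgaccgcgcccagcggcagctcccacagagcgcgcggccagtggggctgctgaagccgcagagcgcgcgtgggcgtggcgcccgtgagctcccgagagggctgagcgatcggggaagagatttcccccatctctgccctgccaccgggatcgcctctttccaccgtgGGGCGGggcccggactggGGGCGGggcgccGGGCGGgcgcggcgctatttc
A GC box was found 2 times for B3gnt7, 2 times for Chst12 and 4 times for Chst8, and in none of the 3 was TATAAA found on either strand. Of the 61 tested genes, 47 had a promoter of this kind. A GC box lay in 34 of them (72.3%, against 32.7% of 32851 mouse promoters), a TATA box (TATAAA, either strand) in 2 (4.26% against 12.4%) and CCAAT, either strand, in 16 (34.0% against 33.8%). The 2 shares are not like for like. Members were counted once per gene and had passed the detection filter, whereas the background counted every promoter, of detected genes or not. These counts describe letters in a window and do not show binding.

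Across the arrays the median intensity was 117 to 168, a probe rested on a median of 37 to 39 beads, and 12364 to 13942 probes were detected. SPF replicates 2 and 4 stood apart on the first principal component of all tested probes (33.6% of the variance), at 48.1 each, with the other 14 arrays between -28.2 and 13.6. Smooth muscle genes were higher on both: the mean log2 intensity of 12 smooth muscle genes was 11.82 and 11.77 on them and 10.38 to 11.19 on the other arrays. Although the tissue was labelled as smooth muscle, 12 of 15 epithelial marker genes were measured as well, at a mean log2 intensity of 10.97 to 11.83. Xist, which is transcribed from the silenced X in females, was detected on 0 of 4 GF, 1 of 4 SPF, 2 of 4 C/-Lop and 2 of 4 C/+Lop arrays. Its log2 intensity was 6.64 to 7.01 on the arrays where it was detected and 4.54 to 4.99 on the others.

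All levels given from here on are log2 intensities after background correction and quantile normalization, and all differences are differences of group means of these values from 1 limma model over the 16 arrays. A gene was called when its limma p-value, adjusted by Benjamini-Hochberg over all tested probes, was under 0.05. A gene with several probes is given by the probe with the highest mean, and levels of different genes are not compared, because probes differ in brightness.

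**Figure D1:**
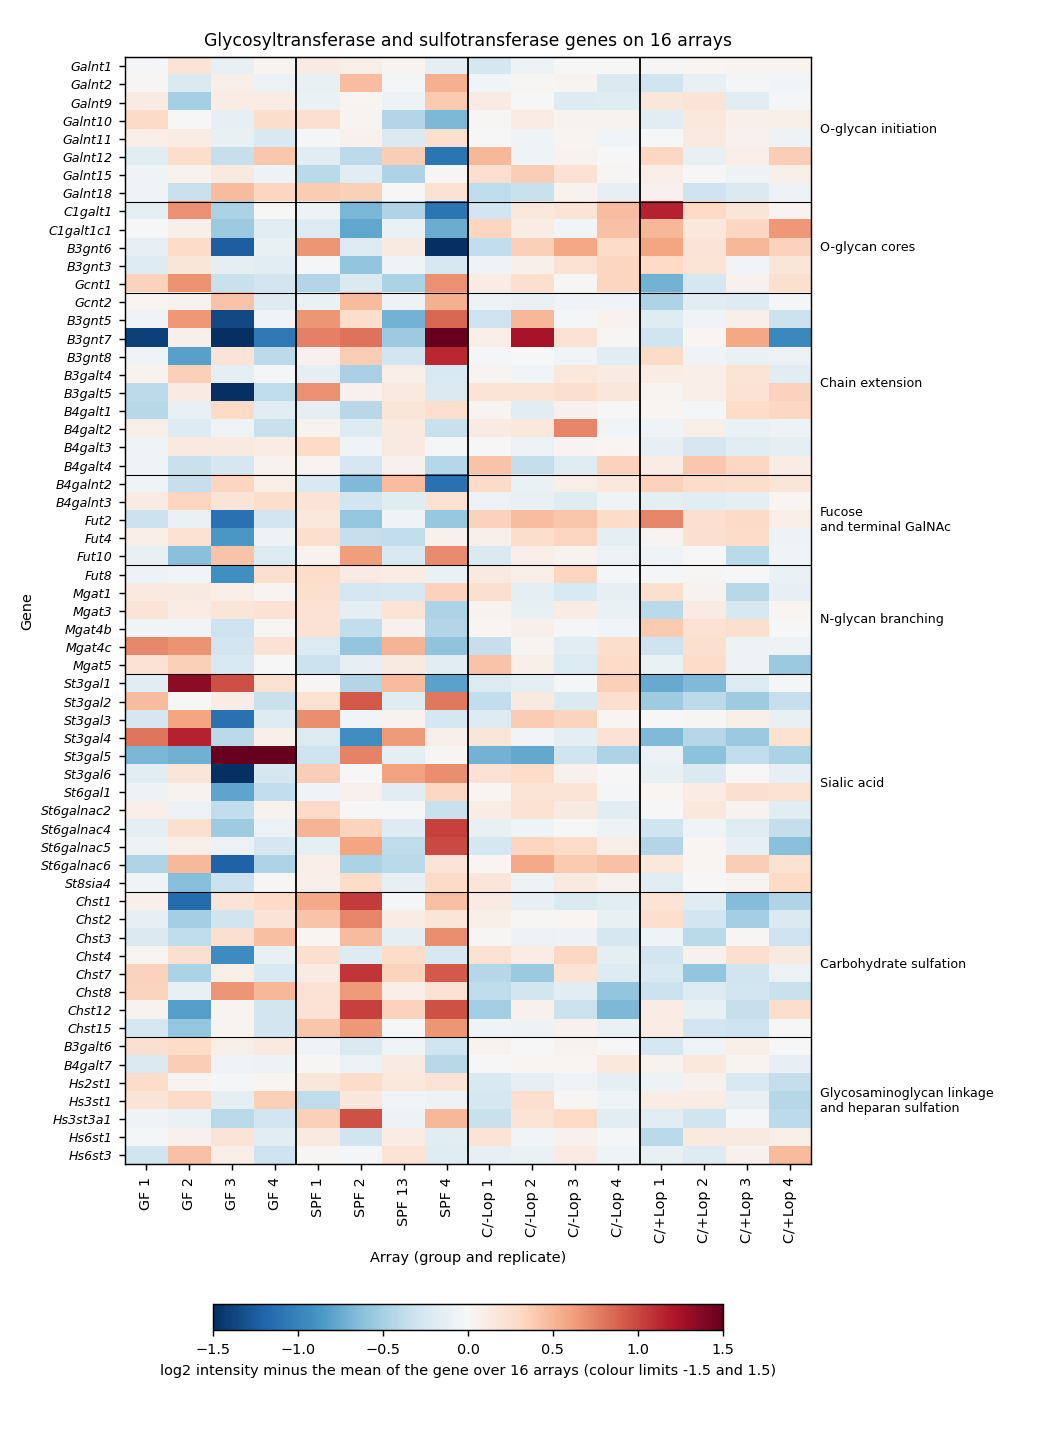
Log2 intensity of each of the 61 genes (rows, grouped by role) on each of the 16 arrays (columns), minus the mean of that gene over all arrays, with colours limited to -1.5 and 1.5. Most carbohydrate sulfation genes are above their mean on SPF replicates 2 and 4, and GF replicate 3 is below it for many capping genes.

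The first question was whether the set differed between mice with and without a conventional microbiota. In SPF against GF mice, 8 of the 61 genes were called (13.1%), 7 higher and 1 lower in SPF mice, where 20.5% of all 9862 genes tested were called (10.9% higher and 9.55% lower). Groups did not overlap for 2 of the 61 genes, against 18.9% of all genes, and both of these genes were called, against 14.3% of all genes. The median difference was 0.05 for the set and 0.01 for all genes. An unadjusted p-value under 0.05 was reached by 19 of the 61 genes and by 35.3% of all genes. The count rested on a few arrays: 3 genes were called without SPF replicate 2, 5 without SPF replicate 4, 15 without SPF replicate 13 and 1 without SPF replicates 2 and 4 together. It was 0 when the model held only the 8 arrays of these groups.

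Carbohydrate sulfotransferases made up 4 of the 7 genes that were higher in SPF mice, and 4 of the 8 sulfotransferases of this role that were tested were called, with a median difference of 0.60 over the 8. Chst15 adds a further sulfate to the N-acetylgalactosamine of chondroitin sulfate. Its levels were 7.36, 7.04, 7.65 and 7.33 on GF replicates 1 to 4 and 8.03, 8.26, 7.62 and 8.28 on SPF replicates 1, 2, 13 and 4. SPF replicate 13 lay within the GF range and the other SPF arrays lay above it. The difference was 0.70 (SE 0.15, 1.63-fold, limma adjusted p = 0.0071), and it kept its call when any single array was left out.

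Chst12, a chondroitin sulfotransferase that acts on N-acetylgalactosamine, was at 6.21, 5.33, 6.20 and 5.89 in GF mice and at 6.38, 7.18, 6.50 and 7.12 in SPF mice. The groups did not overlap, GF replicate 2 was low and SPF replicates 2 and 4 were high. The difference was 0.89 (SE 0.23, 1.85-fold, limma adjusted p = 0.0159), and the call was lost without GF replicate 2 or without SPF replicate 2. Chst7, which sulfates N-acetylglucosamine and chondroitin, was at 5.57, 4.74, 5.31 and 4.99 in GF mice, detected on 2 of 4 arrays, and at 5.34, 6.29, 5.55 and 6.14 in SPF mice, detected on all 4. SPF replicates 2 and 4 were above every GF array and the other SPF arrays were not. Its difference was 0.68 (SE 0.23, limma adjusted p = 0.0455), and the call was lost without GF replicates 2, 3 or 4 or SPF replicates 2 or 4. Chst2, which sulfates N-acetylglucosamine of selectin ligands and keratan sulfate, was at 5.34, 4.95, 5.16 and 5.66 in GF mice, detected on 3 of 4 arrays, and at 5.88, 6.20, 5.57 and 5.64 in SPF mice. These groups overlapped at their edges, with a difference of 0.54 (SE 0.17, limma adjusted p = 0.0388) whose call was lost without GF replicates 1, 2 or 3 or SPF replicates 1 or 2. Chst7 and Chst2 each kept the call under 9 of 23 other settings.

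The other sulfotransferases of this role were not called. Chst1, the keratan sulfate galactose sulfotransferase, had a difference of 0.66 (SE 0.29, limma adjusted p = 0.115), and its GF levels ran from 6.95 on replicate 2 to 8.40 on replicate 4. Chst3, which sulfates chondroitin at N-acetylgalactosamine, was detected on 2 GF and 3 SPF arrays. Chst4, known for sulfating ligands of lymphocyte homing, had means of 7.38 in GF and 7.59 in SPF mice, and Chst8 had means of 7.89 and 7.84.

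Marker genes of muscle and connective tissue moved with these genes. In SPF against GF mice 9 of 12 smooth muscle genes, 7 of 10 fibroblast and matrix genes, 5 of 8 endothelial genes and 6 of 6 genes of antibody-secreting and B cells were called higher, and 4 of 12 epithelial genes were called lower. Of macrophage genes 4 of 8 were called higher, of goblet cell genes 1 of 7 lower, and of 6 genes of Paneth cells and small intestine Defa20 and Lyz1 higher and Sis lower, while 0 of 5 T and NK cell genes and 0 of 8 enteric neuron genes were called. The mean level of the smooth muscle list was 10.38 to 11.19 on GF and 11.05 to 11.82 on SPF arrays, and that of the epithelial list 11.56 to 11.83 and 10.97 to 11.56. With the smooth muscle list as a covariate, a setting chosen after the data were seen, the differences fell to 0.25 for Chst15, 0.19 for Chst12, 0.02 for Chst7 and 0.40 for Chst2, and none of the 4 was called. Without SPF replicates 2 and 4 they were 0.48, 0.53, 0.29 and 0.45, also without a call. In a piece of tissue, fewer cells of a type and less RNA per cell cannot be told apart.

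**Figure D2:**
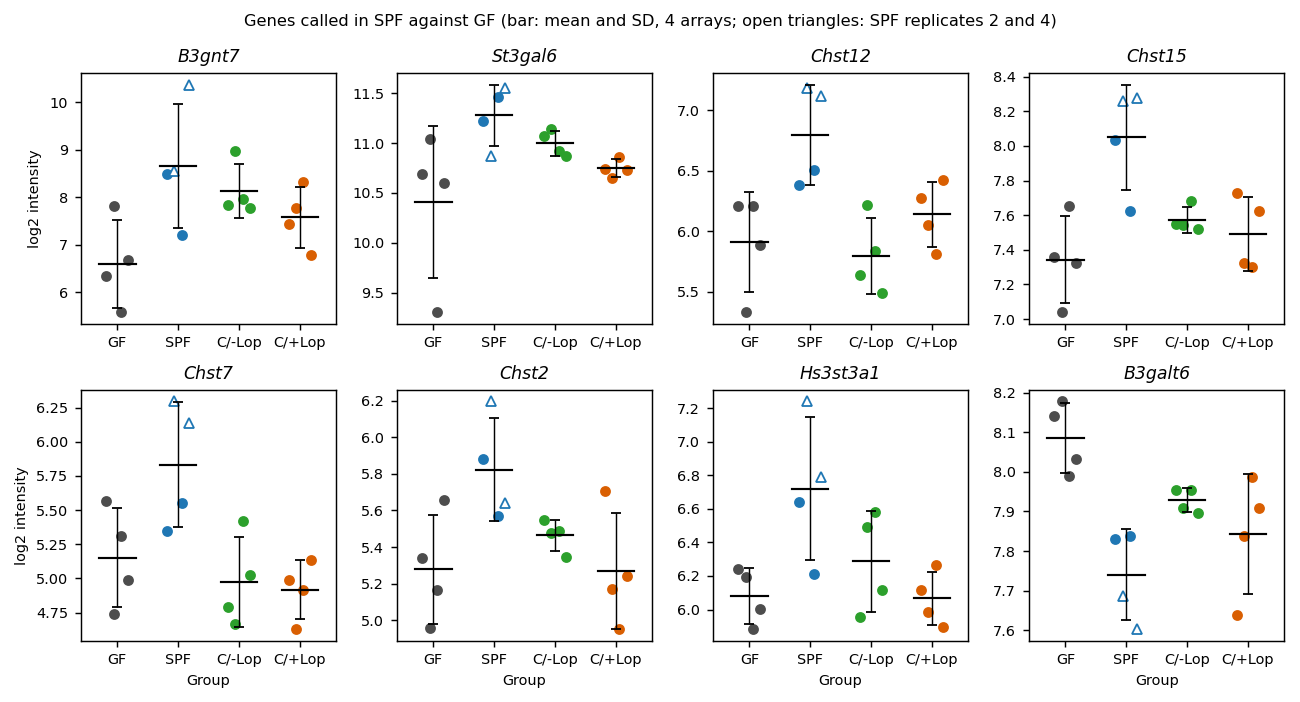
Log2 intensity of the 8 genes called in SPF against GF mice, on each array of the 4 groups; bars give the mean and SD of 4 arrays, and open triangles are SPF replicates 2 and 4. Chst12 and B3galt6 show no overlap between GF and SPF arrays, and the means of both recipient groups lie below the SPF mean for the 7 genes that were higher in SPF mice.

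B3gnt7, an N-acetylglucosaminyltransferase that extends sulfated lactosamine chains, had the largest difference of the set. On GF replicates 1 to 4 it was at 6.34, 7.81, 5.57 and 6.67, and on SPF replicates 1, 2, 13 and 4 at 8.50, 8.55, 7.19 and 10.37. SPF replicate 13 lay below GF replicate 2, and SPF replicate 4 was more than any other array. The SPF mean was higher by 2.06 (SE 0.57, 4.16-fold, limma adjusted p = 0.0208), and the call was lost without GF replicate 3, without SPF replicate 2 or without SPF replicate 4. Without SPF replicates 2 and 4 together the difference was 1.25, and with the smooth muscle covariate it was 1.84, neither of them called. The recipient means lay between those of GF and SPF mice, with single arrays at 7.84, 8.98, 7.95 and 7.76 on C/-Lop arrays and 7.44, 7.77, 8.33 and 6.78 on C/+Lop arrays, with no call against GF or SPF mice.

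St3gal6 adds sialic acid to terminal galactose and takes part in making sialyl Lewis X. It was at 10.69, 11.04, 9.30 and 10.60 in GF mice and at 11.22, 10.87, 11.46 and 11.55 in SPF mice. GF replicate 3 was the low array, and SPF replicate 2 lay within the GF range. The difference was 0.87 (SE 0.27, 1.82-fold, limma adjusted p = 0.0329). In contrast to the sulfotransferases it grew to 1.51, still called, with the smooth muscle list as a covariate, and it was 0.93, not called, without SPF replicates 2 and 4. With the epithelial list as a covariate it was 1.13 and not called, and the call was also lost with median scaling (0.79) and without SPF replicate 13 (0.80) or SPF replicate 4 (0.77).

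Of the enzymes of glycosaminoglycan linkage and heparan sulfation, 1 was higher and 1 lower in SPF mice. B3galt6, the galactosyltransferase that adds the second galactose of the linkage between chain and core protein, was the only gene called lower on its brightest probe: 8.14, 8.18, 7.99 and 8.03 on GF arrays against 7.83, 7.69, 7.84 and 7.60 on SPF arrays. The groups did not overlap, and the difference was small, -0.35 (SE 0.09, 1.27-fold, limma adjusted p = 0.0158). The call was lost without GF replicate 2 (-0.32), with the epithelial (-0.22) or smooth muscle (-0.20) covariate and with median scaling (-0.20). B3galt4, a galactosyltransferase of gangliosides, was not called on its brightest probe (-0.25, limma adjusted p = 0.189), but its other probe, of nearly the same mean, was lower without overlap between groups (-0.50, 0.0191). Hs3st3a1, which places rare sulfates on heparan sulfate, was at 6.24, 6.19, 5.88 and 6.00 in GF mice and at 6.64, 7.24, 6.21 and 6.79 in SPF mice. It was higher by 0.64 (SE 0.19, limma adjusted p = 0.0259), with SPF replicate 13 inside the GF range. That call was lost without GF replicates 3 or 4 or SPF replicates 2 or 4, and with the epithelial (0.25) or smooth muscle (0.33) covariate. Hs3st3a1, and Chst7 in this comparison, did not meet the rule for named genes and are given because they were called; St6galnac4, St3gal5 and B4galt4, below, were chosen after their values were seen.

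None of the O-glycan initiation, O-glycan core, fucose and N-glycan branching genes was called in SPF against GF mice. For the 8 initiating GALNT enzymes tested, differences lay between -0.36 and 0.26. Galnt1 had a mean of 9.18 in either group. Galnt2 went from 10.08 in GF to 10.35 in SPF mice and Galnt12 from 6.47 to 6.11. All 5 core genes had lower means in SPF mice, by -0.59 (C1galt1) to -0.02 (B3gnt6). Of the fucosyltransferases, Fut4, which makes Lewis X structures, had a mean of 10.08 without and 10.13 with a conventional microbiota, and Fut8, which adds the core fucose of N-glycans, of 9.02 and 9.32. B4galnt2, which makes the Sda antigen and in mice is mainly an enzyme of gut epithelium, was at 12.27, 11.97, 12.64 and 12.42 on GF arrays against 12.09, 11.65, 12.78 and 11.20 on SPF arrays. Its SPF levels thus spanned the GF range, with SPF replicates 2 and 4 low.

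Several other capping genes had differences that were not called, with adjusted p-values under 0.13. B3galt5, which makes the type of chain that carries Lewis a and sialyl Lewis a in man, was higher by 0.73 (SE 0.26, limma adjusted p = 0.0626) with GF replicate 3 at 8.86 and the other 15 arrays at 10.04 or more. St3gal1, which sialylates core 1, had a difference of -0.78 (SE 0.31, limma adjusted p = 0.0873) and ran from 6.76 to 8.26 in GF mice. For St6gal1, which sialylates N-glycans, it was 0.34 (SE 0.15, limma adjusted p = 0.124). St6galnac4, which adds a further sialic acid to sialylated core 1, showed 0.55 (limma adjusted p = 0.0635) on its brightest probe, while another probe gave 0.77 (0.0430) and was called. One more probe was called as well, but it was detected on 1 of 4 GF arrays, so that its difference has no measured GF level.

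Part of the spread came from single GF arrays. GF replicate 3 was the lowest GF array for 29 of the 61 genes and GF replicate 2 the highest for 28. For St3gal5, the sialyltransferase that starts gangliosides from lactosylceramide, GF replicates 3 and 4 stood at 8.67 and 7.24 and GF replicates 1 and 2 at 4.83 and 4.80. Its second probe showed the same split (7.34 and 6.23 against 5.07 and 4.78), and no other array was above 6.27 on the brighter probe. Within SPF mice, replicates 2 and 4 were both above replicates 1 and 13 for 21 of the 61 genes and both below them for 23.

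**Figure D3:**
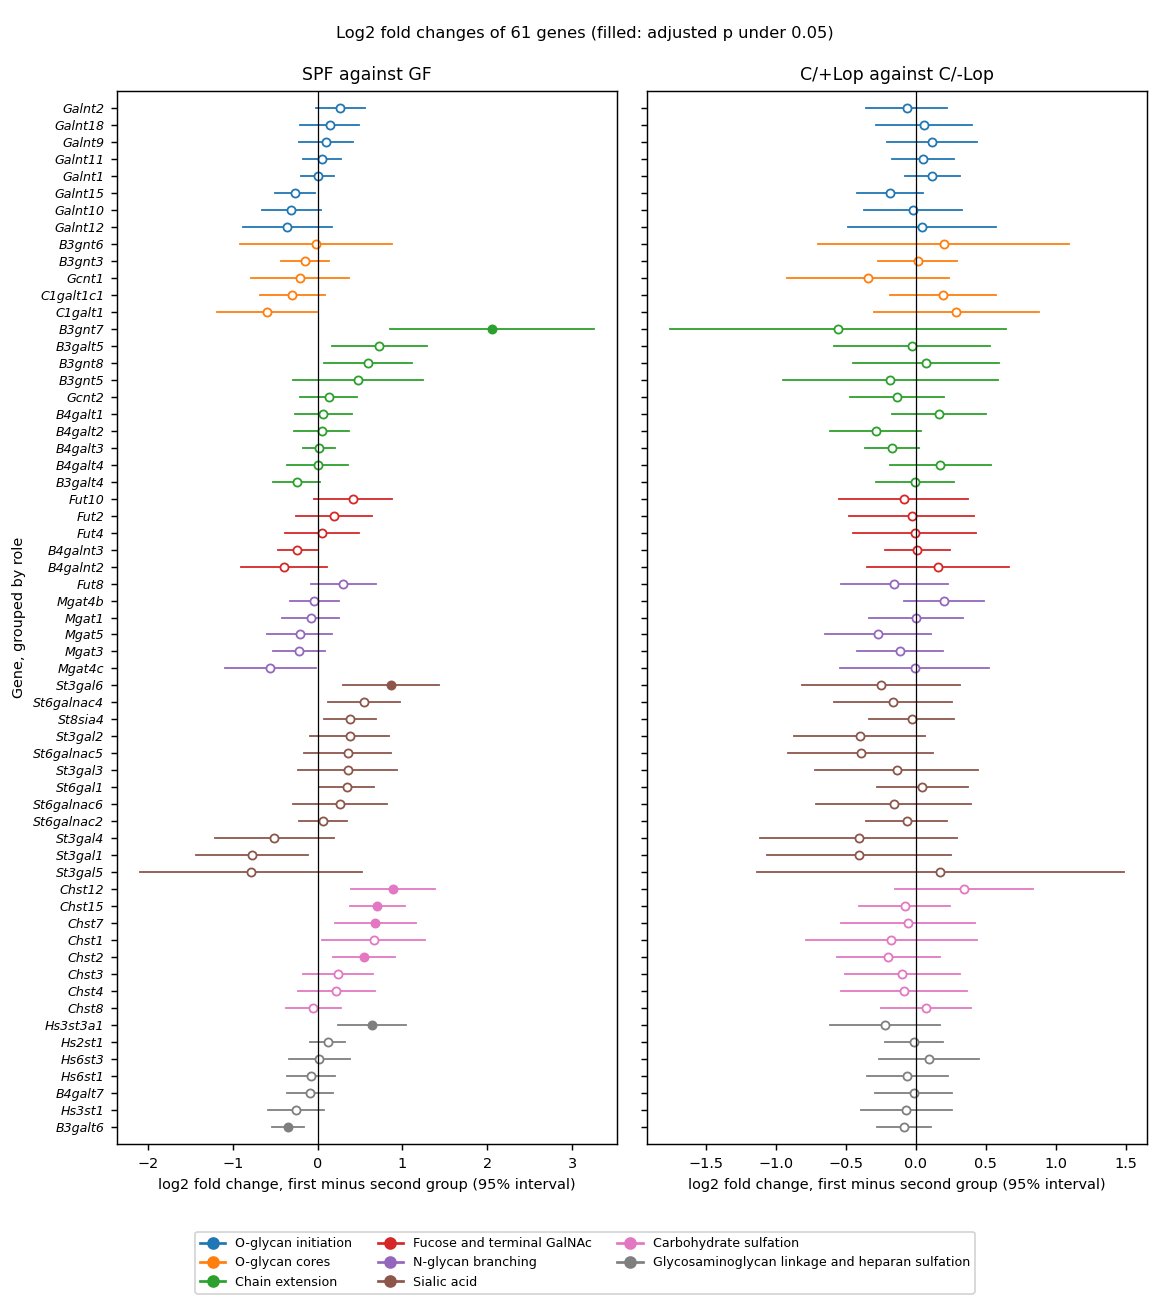
Log2 fold change of each of the 61 genes (points) with its 95% interval (lines), SPF against GF at left and C/+Lop against C/-Lop at right, grouped and coloured by role; filled points are called. At left 8 points are filled and the Chst genes sit mostly above 0, and at right no point is filled.

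The second question was whether recipients of microbiota from loperamide-treated donors differed from recipients of control microbiota. In C/+Lop against C/-Lop mice, 0 of the 61 genes and 0% of all genes were called with limma, an unadjusted p-value under 0.05 was reached by 0 of the 61 and by 3.78% of all genes, and the methods' t-test and every other setting run called 0 of the 61 as well. Groups did not overlap for 3 of the 61 genes, against 4.20% of all genes: Galnt1, B4galt3 and St3gal6. Differences lay between -0.56 and 0.34, and the 95% intervals of the 61 genes between -1.76 and 1.49.

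The genes with the smallest p-values are given first, and the largest difference was not among them. That was -0.56, for B3gnt7. B4galt3, a galactosyltransferase of N-glycan chains, ran from 8.90 to 9.03 on C/-Lop arrays and from 8.73 to 8.86 on C/+Lop arrays (difference -0.17, 95% interval -0.36 to 0.02). The groups did not overlap, and their means differed by less than the range of the SPF arrays (8.93 to 9.29). The other probe of B4galt3 went the opposite way, also without overlap (0.29, 95% interval 0.05 to 0.54), so that no direction is given for this gene. B4galt2, of the same family, differed by -0.29 (-0.61 to 0.04), and St3gal2, which sialylates core 1 and gangliosides, by -0.40 (-0.87 to 0.07). Towards higher levels in C/+Lop mice, Chst12 differed by 0.34 (-0.15 to 0.83), Mgat4b, an enzyme of N-glycan branching, by 0.20 (-0.09 to 0.49), and Galnt1 by 0.12. For Fut2 the interval of the difference was -0.48 to 0.41 and for Chst8 -0.25 to 0.40. The widest intervals were those of St3gal5 (-1.13 to 1.49) and B3gnt7 (-1.76 to 0.65). All 61 limma adjusted p-values were 0.999861 or more.

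Both recipient groups were then set against GF mice, which were not gavaged. Xist was detected on 0 of 4 GF arrays and on 2 of 4 arrays of each recipient group. Sex can therefore not be told apart from colonization here, and age may differ as well. In C/-Lop against GF mice, 2 of the 61 genes were called, against 2.76% of all genes (1.46% higher and 1.30% lower). In C/+Lop against GF mice 2 were called as well, against 7.19% of all genes (3.33% higher and 3.86% lower). In both comparisons they were Fut2, higher, and Chst8, lower, each without overlap between groups (2.69% and 6.89% of all genes were called without overlap). Groups did not overlap for 6 of the 61 genes in the first comparison and for 8 in the second, against 13.4% and 17.4% of all genes. The comparisons share the GF arrays, and the values are therefore given side by side.

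Fut2 makes the terminal fucose of blood group H on mucosal glycans, and in mice its epithelial expression is known to respond to gut bacteria. In SPF against GF mice it was not called, with a difference of 0.19 (SE 0.21, limma adjusted p = 0.546). It was at 9.90, 10.12, 9.11 and 9.94 on GF replicates 1 to 4, at 10.57, 10.69, 10.63 and 10.50 on C/-Lop arrays and at 10.96, 10.48, 10.51 and 10.32 on C/+Lop arrays. Every recipient array was above every GF array. In linear intensity before normalization the GF arrays ran from 533 to 1205, the C/-Lop arrays from 1213 to 1599 and the C/+Lop arrays from 908 to 2401. The difference against GF mice was 0.83 for C/-Lop (SE 0.21, 1.78-fold, limma adjusted p = 0.0464) and 0.80 for C/+Lop mice (SE 0.21, 1.74-fold, limma adjusted p = 0.0315). GF replicate 3 was low, and without it the differences were 0.61 (limma adjusted p = 0.113) and 0.58 (0.083). The C/-Lop call sat near the threshold and was lost without any one of the other arrays of either group except GF replicate 2, with differences of 0.61 to 0.95 over these settings. The C/+Lop call was lost without GF replicates 1 or 3 or C/+Lop replicates 1, 2 or 3, with differences of 0.58 to 0.92. Both calls were also lost with median scaling, without a filter, with only the 2 groups compared and with the methods' t-test. Of 22 other settings, 9 kept the C/-Lop call and 12 the C/+Lop call.

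Chst8 sulfates N-acetylgalactosamine on N-glycans and is best known for pituitary hormones. Its levels were 7.88, 7.43, 8.21 and 8.05 on GF arrays, 7.76, 8.18, 7.65 and 7.76 on SPF arrays, 7.17, 7.27, 7.37 and 6.95 on C/-Lop arrays and 7.23, 7.34, 7.28 and 7.22 on C/+Lop arrays. Every recipient array was below every GF and SPF array. Against GF mice the difference was -0.70 for C/-Lop (SE 0.15, 1.63-fold, limma adjusted p = 0.0252) and -0.63 for C/+Lop mice (SE 0.15, 1.55-fold, limma adjusted p = 0.0226). The first call was lost without GF replicates 1, 3 or 4 or C/-Lop replicates 2 or 4, and the second without GF replicates 3 or 4 or C/+Lop replicates 1 or 3.

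Cell type markers were counted here too. No smooth muscle, epithelial, fibroblast, endothelial or enteric neuron gene of the lists was called in either recipient group against GF mice, while 4 of 6 antibody-secreting and B cell genes were called higher in both, 1 of 7 goblet cell genes in both, and 2 and 3 of 8 macrophage genes. In both, Reg3g was called higher and Apoa1 lower among the 6 Paneth cell and small intestine genes. With the smooth muscle list as a covariate, Fut2 was higher by 0.78 and 0.74 and Chst8 lower, at -0.67 and -0.59, and all 4 values stayed called. With the epithelial list they were 0.98 and 1.00 and -0.85 and -0.82, also called. With Xist as a covariate Fut2 was at 0.90 and 0.87 and lost both calls.

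Other genes were near these in C/+Lop against GF mice without a call. C1galt1c1, the chaperone that the core 1 enzyme needs, was higher by 0.56 (SE 0.18, limma adjusted p = 0.0696), with no overlap between groups, and St3gal1 was at a mean of 7.52 in GF and 6.52 in C/+Lop mice (SE of the difference 0.31, limma adjusted p = 0.0621). B4galnt3, which makes a terminal N-acetylgalactosamine structure, was detected on 4 GF, 2 SPF, 0 C/-Lop and 1 C/+Lop arrays. Its GF mean was 1.14-fold above the lowest detectable signal of the C/-Lop arrays (limma adjusted p = 0.114 for the difference of means). B4galt4, a galactosyltransferase, was detected on 0 GF, 0 SPF, 2 C/-Lop and 3 C/+Lop arrays. Its C/+Lop mean was 1.02-fold above that signal on GF and 1.12-fold above it on SPF arrays (limma adjusted p = 0.184 and 0.123 for the differences of means). These folds take no account of the spread between arrays. The C/+Lop mean of B4galt4 also includes an array where it was not detected. Galnt1, Fut4, Mgat1, which starts complex N-glycans, and Hs6st1, which sulfates heparan sulfate, differed from GF mice by no more than 0.28 in either recipient group.

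**Figure D4:**
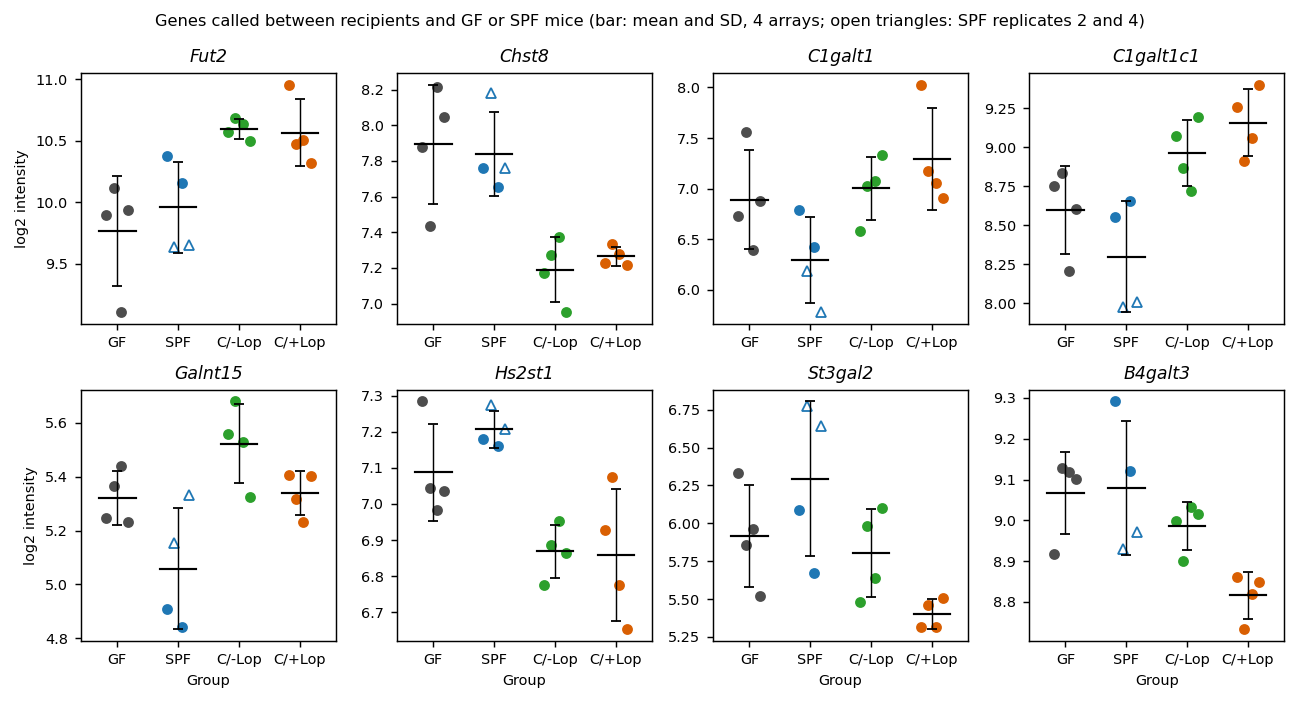
Log2 intensity of 8 genes called between a recipient group and GF or SPF mice, on each array; bars give the mean and SD of 4 arrays, and open triangles are SPF replicates 2 and 4. For Fut2 all recipient arrays lie above the GF arrays and for Chst8 below them, while for St3gal2 the SPF spread is wide.

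Finally, recipients were compared with SPF mice. In C/-Lop against SPF mice 8 of the 61 genes were called, 3 higher and 5 lower, against 16.4% of all genes (6.94% higher and 9.44% lower). In C/+Lop against SPF mice 12 were called, 3 higher and 9 lower, against 21.1% of all genes (9.26% higher and 11.9% lower). Groups did not overlap for 7 and 9 of the 61 genes (21.0% and 22.4% of all genes), of which 5 and 7 were called (13.9% and 17.3% of all genes). These comparisons share the SPF arrays with each other and with SPF against GF mice. Without SPF replicates 2 and 4 they gave 1 and 2 genes, without SPF replicate 13 they gave 15 and 22, and with the smooth muscle list as a covariate 1 and 0. In both, 9 of 12 smooth muscle genes were called lower in recipients, and 6 and 7 of 10 fibroblast and matrix genes.

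Of the core 1 genes, C1galt1c1 was called higher in both recipient groups and C1galt1 in C/+Lop mice. C1galt1c1 was at 8.55, 7.98, 8.65 and 8.01 on SPF replicates 1, 2, 13 and 4, at 9.07, 8.87, 8.72 and 9.19 on C/-Lop arrays and at 9.26, 8.91, 9.06 and 9.40 on C/+Lop arrays. No recipient array overlapped the SPF arrays, and SPF replicates 2 and 4 were lowest. It was higher by 0.67 (SE 0.18, limma adjusted p = 0.0212) in C/-Lop and by 0.86 (SE 0.18, 1.82-fold, limma adjusted p = 0.0049) in C/+Lop mice. C1galt1, the core 1 galactosyltransferase itself, was at 6.79, 6.19, 6.42 and 5.78 in SPF mice and at 8.03, 7.17, 7.05 and 6.91 in C/+Lop mice. The groups did not overlap, and the difference was 1.00 (SE 0.28, 1.99-fold, limma adjusted p = 0.0203); for C/-Lop mice it was 0.71 and not called (limma adjusted p = 0.0867). With the smooth muscle list as a covariate C1galt1c1 was higher by 0.0236 and 0.22 and C1galt1 in C/+Lop mice by 0.23, and without SPF replicates 2 and 4 they were higher by 0.36, 0.55 and 0.69, none of them called. The C/-Lop call of C1galt1c1 was also lost without SPF replicates 2 or 4 or C/-Lop replicates 1 or 4, and the C1galt1 call without SPF replicates 2 or 4 or C/+Lop replicate 1. B3gnt6, which makes core 3, and Gcnt1, which makes core 2, were not called. B3gnt3, which extends core 1, was higher by 0.37 (limma adjusted p = 0.0657) and 0.38 (0.0512).

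Fut2 was also higher than in SPF mice, by 0.64 (SE 0.21, limma adjusted p = 0.0472) in C/-Lop and by 0.61 (SE 0.21, limma adjusted p = 0.0486) in C/+Lop mice. Its SPF levels were 10.38, 9.64, 10.15 and 9.66, so that the C/+Lop arrays overlapped them and the C/-Lop arrays did not. Without SPF replicates 2 and 4 these differences were 0.33 and 0.30, not called, and with the smooth muscle covariate they turned to -0.07 and -0.11. Each call was kept under 9 of 23 other settings. Both were lost without SPF replicate 2 or 4, with median scaling, without a filter and with the epithelial covariate. The C/-Lop call was also lost without any single C/-Lop array, and the C/+Lop call without C/+Lop replicates 1, 2 or 3. Galnt15, an initiating enzyme of the GALNT family that was chosen after its values were seen, was at 4.91, 5.16, 4.84 and 5.33 in SPF mice, detected on 2 of 4 arrays, and at 5.56, 5.68, 5.53 and 5.33 in C/-Lop mice. The difference was 0.46 (SE 0.11, limma adjusted p = 0.0126). It grew without SPF replicates 2 and 4, to 0.65, and with the smooth muscle covariate, to 0.74, both called. The call was kept under 20 of 23 other settings. It was lost with only the 2 groups compared, with the replicate number in the model and with the methods' t-test. In linear intensity before normalization the order was the opposite, at 145.8 to 168.5 on SPF and 131.5 to 150.3 on C/-Lop arrays.

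Sulfotransferases were the main group of genes that were lower in recipients, with 4 of the 8 carbohydrate sulfotransferases called in each comparison. Chst7 (-0.86 in C/-Lop and -0.91 in C/+Lop mice), Chst15 (-0.48 and -0.56) and Chst8 (-0.65 and -0.57) were called lower in both. Chst7 was detected on only 1 of 4 arrays in either recipient group, so that its recipient level was hardly measured. Chst12 was called in C/-Lop mice (5.79 against 6.79 in SPF mice, SE of the difference 0.23, limma adjusted p = 0.0106) and had -0.66 in C/+Lop mice (limma adjusted p = 0.0524), and Chst2 was called in C/+Lop mice (-0.56, limma adjusted p = 0.0332). The GF mean of Chst8 (7.89) was near its SPF mean (7.84), whereas the GF means of Chst7 (5.15), Chst12 (5.91), Chst15 (7.34) and Chst2 (5.28) were below their SPF means (5.83, 6.79, 8.05 and 5.82). Without SPF replicates 2 and 4, none of these 8 differences was called, and Chst8 was at -0.51 and -0.44. With the smooth muscle covariate Chst8 was at -0.18 and -0.11, not called. The C/-Lop call of Chst15 (limma adjusted p = 0.0451) was lost without any single array of the 2 groups except SPF replicate 13.

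Hs2st1, which sulfates the uronic acid of heparan sulfate, was lower in both recipient groups. It was at 7.18, 7.28, 7.16 and 7.21 in SPF mice, at 6.77, 6.89, 6.95 and 6.86 in C/-Lop mice and at 6.93, 7.07, 6.78 and 6.65 in C/+Lop mice. Neither recipient group overlapped the SPF arrays, and the differences were -0.34 (SE 0.10, limma adjusted p = 0.0287) and -0.35 (SE 0.10, limma adjusted p = 0.0203). They were -0.30 and -0.31 without SPF replicates 2 and 4 and -0.31 and -0.32 with the smooth muscle covariate, none of them called. The C/-Lop call was also lost without SPF replicates 2 or 4 or C/-Lop replicates 1, 2 or 4, and the C/+Lop call without SPF replicate 2 or C/+Lop replicates 3 or 4.

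Further genes were called lower in C/+Lop against SPF mice. St3gal2 was at 6.09, 6.78, 5.67 and 6.64 in SPF mice and at 5.32, 5.46, 5.32 and 5.50 in C/+Lop mice, without overlap (-0.89, SE 0.22, limma adjusted p = 0.0114). The St3gal2 call was kept under 20 of 23 other settings. It was lost without SPF replicates 2 and 4 together, with the smooth muscle covariate and with the methods' t-test. Hs3st3a1 had a difference of -0.65 and St6galnac4 of -0.64, each with overlapping groups. Their calls were kept under 15 and 11 of 23 other settings. No other probe of St6galnac4 was called here, though one was called lower in C/-Lop against SPF mice. B4galt3 had -0.26 (limma adjusted p = 0.0469) on its brightest probe, but its other probe went the opposite way, from 7.09 in SPF to 7.36 in C/+Lop mice, so that the direction of this gene is not settled. Second probes of Mgat4b gave 0.50 (limma adjusted p = 0.0379) in C/-Lop and 0.76 (0.0045) in C/+Lop mice, and one of Galnt10 gave 0.76 (0.0121) and 0.64 (0.0211), where the probes that represent these genes were not called. Over the 25 further probes, of 17 genes, the sign was that of the brightest probe for 21 in C/-Lop and for 17 in C/+Lop against SPF mice.

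**Figure D5:**
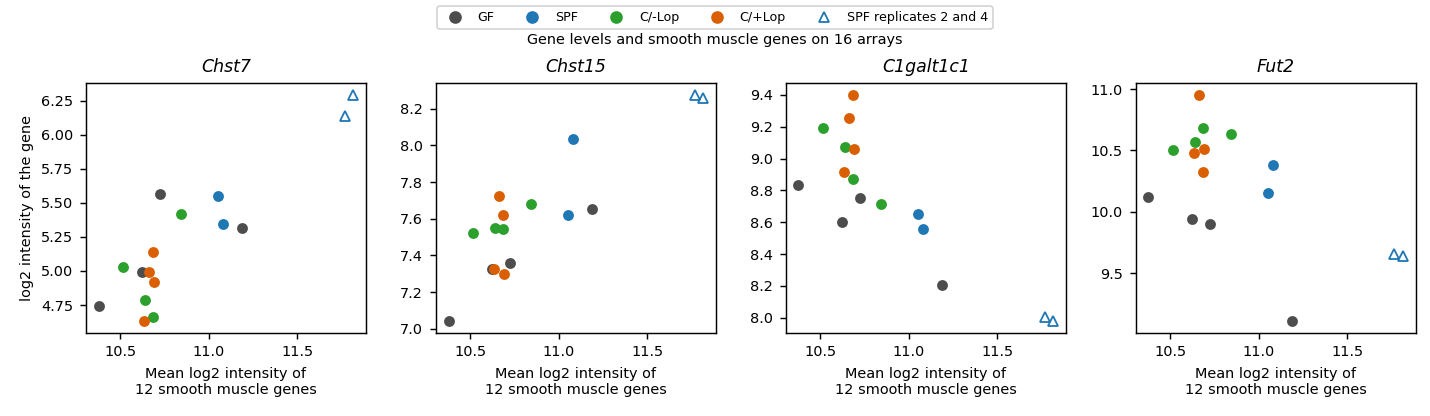
Log2 intensity of Chst7, Chst15, C1galt1c1 and Fut2 (vertical axes) against the mean log2 intensity of 12 smooth muscle genes (horizontal axes) on the 16 arrays, coloured by group. SPF replicates 2 and 4 (open triangles), at 11.82 and 11.77, have the highest level of these genes, high Chst7 and Chst15 and low C1galt1c1.

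Over the 6 comparisons 17 of the 61 genes (27.9%) were called at least once on their brightest probe, against 35.8% of all genes. They were 1 of 8 initiating enzymes, 2 of 5 of the core role, 2 of 10 chain extension enzymes, 1 of 5 of the fucose and terminal N-acetylgalactosamine role, none of 6 N-glycan branching enzymes, 3 of 12 sialyltransferases, 5 of 8 carbohydrate sulfotransferases and 3 of 7 genes of glycosaminoglycan linkage and heparan sulfation. The group means of the other 44 spanned 0.07 (Galnt11, an initiating enzyme, 8.47 to 8.53) to 1.42 (St3gal5, 4.96 to 6.39). Among the steadiest were Galnt1 (9.07 to 9.19), Hs6st1 (8.38 to 8.49), Hs6st3, of the same heparan family (4.99 to 5.08, detected on 6 of 16 arrays), and B4galt7, which adds the first galactose of the glycosaminoglycan linkage (6.31 to 6.45). In these 4 genes single arrays spread more widely than the group means.

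Some uncalled genes with wider spans, chosen after their values were seen, are given with the arrays at their ends. St6galnac6, a sialyltransferase of disialyl Lewis a in man, had a mean of 9.18 in GF and 9.95 in C/-Lop mice, with GF replicate 3 at 8.38 and GF replicate 2 at 10.08. St3gal4, which sialylates galactose of lactosamine, had means of 9.13 in GF and 8.37 in C/+Lop mice, with GF arrays from 8.32 to 9.87. For B3gnt6, the core 3 enzyme of colon, both ends of the range were SPF arrays, the lowest being replicate 4 and the highest replicate 1 (7.54). B3gnt8, a lactosamine extension enzyme, ran up to 7.68 on SPF replicate 4 and down to 5.73 on GF replicate 2. Chst1 was highest on SPF replicate 2 (9.16) and lowest on GF replicate 2 (6.95).

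On their brightest probes the N-glycan branching enzymes stayed without a call throughout. Another probe of Mgat4b was called higher in both recipient groups against SPF mice, as given above. Mgat3, which adds the bisecting residue, had group means of 8.40 to 8.70, Mgat5, which starts a branch that carries long lactosamine chains, 5.06 to 5.34 with detection on 10 of 16 arrays, and Mgat4b 10.29 to 10.63. Mgat4c had the widest span of the role, 5.01 in SPF to 5.56 in GF mice, detected on 9 of 16 arrays. The chain extension enzymes B4galt1, which makes lactosamine on many glycans (8.72 to 8.97), and Gcnt2, which makes the branches of the blood group I antigen (10.01 to 10.43), were also not called, nor was the polysialyltransferase St8sia4 (6.53 to 6.92).

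Enzymes around the set were counted from lists of the pathway. Of 15 measured genes for sugar nucleotide and sulfate donors, 1 was higher and 1 lower in SPF than in GF mice: Gne, the key enzyme of sialic acid synthesis, by 0.51 (limma adjusted p = 0.0349), and Papss2, which makes the sulfate donor PAPS, by -0.95 (0.0037). Papss2 was at a mean of 9.22 in GF, 8.27 in SPF and 9.03 in C/+Lop mice, where it was called higher than in SPF mice by 0.77 (limma adjusted p = 0.0089). In the 12 Golgi transporters measured, Slc35a2, which carries UDP-galactose, was higher in SPF mice by 0.44 (limma adjusted p = 0.0063), and Slc26a2, a sulfate transporter, had -0.48 (0.0461).

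Of 8 mucin and mucus genes, Muc1, a membrane mucin, was higher in SPF mice by 0.93 (limma adjusted p = 0.0464), and Tff3, a goblet cell peptide, was lower (-0.62, 0.0139). Muc1 was detected on 2 of 4 GF arrays and on all others, and was higher than in GF mice by 1.42 in C/-Lop (limma adjusted p = 0.0265) and by 1.12 in C/+Lop mice (0.0415). Spdef, a transcription factor of goblet cells, was higher in recipients than in SPF mice by 1.15 (0.0147) and 1.32 (0.0061). Of 11 glycosaminoglycan chain enzymes, Ext1 and Extl3, which take part in making heparan sulfate chains, exceeded GF levels in SPF mice by 0.42 (limma adjusted p = 0.0046) and 0.39 (0.0418). In recipients against SPF mice Ext1, Ext2, Extl3 and Sulf1, which trims sulfate from heparan sulfate, were all called lower in both groups. Among 17 other terminal and Notch-modifying enzymes, 2 were higher and 3 lower in SPF than in GF mice, among them Gal3st1, the sulfotransferase that makes sulfatide (-0.82, limma adjusted p = 0.0013), and Neu1, a lysosomal sialidase (-0.79, 0.0135).

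For the 3 genes with the largest range of group means, the genes with the most similar pattern over the 16 arrays were found by Pearson correlation, as a description only: the arrays share groups and tissue composition. The closest were Sycn, Adh1 and Ctse for B3gnt7 (r = 0.93 each), Lin7b, Rtn4 and Ppp1r1a for St3gal5 (0.87, 0.81 and 0.81) and Nfix, Ltbp4 and Lamc1 for Chst12 (0.94, 0.93 and 0.92).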

How the data were processed

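Linear bead intensities without normalization were deposited, with the bead count, a standard error and a detection p-value of every probe. The authors also deposited normalized log2 values for 16029 of 25697 probes, which lay within 0.0251 of those computed here. The submitters' processing notes name limma, with no version, and the paper's text does not describe the arrays. In R 4.3.3 with limma 3.58.1, neqc corrected the background (normexp from detection p-values, offset 16), quantile normalized and took log2. Probes detected on at least 4 of 16 arrays were kept (14102). The linear model had a mean per group over all 16 arrays and 12 residual degrees of freedom, followed by eBayes and Benjamini-Hochberg over kept probes. Symbols came from the platform annotation of 15096 probes, and 781 kept probes were unnamed here. The fit was tested on simulated data first. 

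The named genes were, in each comparison, the called genes whose groups did not overlap, with the largest changes (up to 15 in each direction in SPF against GF mice, 8 in the others; the 3 smallest p-values in each direction where none passed), and a fixed set for mucin, blood group, N-glycan, sialic acid and heparan sulfate synthesis. Of that set Fut1, B4galnt1, Gcnt3, St6galnac1, St8sia1, Galnt3, Galnt4, Galnt7, Mgat2, Mgat4a, Ndst1 and Ndst2 were not analysed here. Members and lists were chosen with earlier results of these data known. Alternatives covered the deposited values, background, scaling, filter, arrays in the fit, replicate block, probe choice, array weights, Xist, the methods' t-test and single arrays. Leaving out SPF replicates 2 and 4 together and the epithelial and smooth muscle covariates were added after the data were seen.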

Additional observations from a re-analysis of the deposited data

Results flagged for a closer look

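In 7 of 244 groups of 4 arrays 1 array lay far from the other arrays of its group, where chance gives about 1 group in 20. B3gnt3 was high on GF replicate 2, at 9.93 with the next array at 9.61, a gap of 0.856 of the range of the group. B3gnt7 was high on C/-Lop replicate 2, at 8.98 with the next array at 7.95 (0.844 of the range). B4galt3 was low on GF replicate 1, at 8.92 with the next array at 9.10 (0.870 of the range). Hs6st1 was low on C/+Lop replicate 1, at 8.03 with the next array at 8.52 (0.895 of the range). B3gnt8 was high on C/+Lop replicate 1, at 6.84 with the next array at 6.50 (0.872 of the range). On GF replicate 2, Chst1 was low, at 6.95 with the next array at 8.19 (0.852 of the range), and so was Galnt9, an initiating enzyme, at 4.49 with the next array at 5.10 (0.965 of the range). The critical share for 4 arrays is 0.829.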

How the results depend on the processing

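Of 32 called differences of single genes, 460 of 732 values under other settings kept the call, 268 kept the direction without the call and 4 changed sign. Those 4 were Fut2 in C/-Lop and C/+Lop against SPF mice (-0.074 and -0.108) and Chst15 in C/-Lop against SPF mice (0.0193), with the smooth muscle list as a covariate, and B4galt3 in C/+Lop against SPF mice (0.00667) with the mean of all kept probes. Of 4803 values of uncalled differences 350 changed sign and 98 became called. Numbers of genes called moved as follows. In SPF against GF mice (8) there were 5 without a filter, 0 with these 2 groups alone, 5 with array weights, 0 with the methods' t-test, 1 without SPF replicates 2 and 4, 0 with the epithelial and 4 with the smooth muscle covariate, and 3 to 15 when single arrays were left out. In C/-Lop against GF mice (2) there was 1 with median scaling, 1 without a filter, 0 with 2 groups, 7 with array weights, 1 with Xist, 0 with the t-test and 0 to 3 over single arrays. In C/+Lop against GF mice (2) there was 1 without a filter, 1 with 2 groups, 7 with array weights, 0 with the t-test, 6 with either covariate and 0 to 5 over single arrays. In C/-Lop against SPF mice (8) there were 5 with 2 groups, 3 with array weights, 1 with the t-test, 1 without SPF replicates 2 and 4, 3 and 1 with the epithelial and smooth muscle covariates, and 3 to 15 over single arrays. In C/+Lop against SPF mice (12) there were 6 with 2 groups, 1 with the t-test, 2 without SPF replicates 2 and 4, 0 with the smooth muscle covariate and 4 to 22 over single arrays. In C/+Lop against C/-Lop mice the number was 0 under each setting run.

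Over all groups replicate numbers showed no general pairing. For 21 pairs of arrays with the same number the correlation of deviations from group means was -0.55 to 0.36 (median 0.02). Of the 16 arrays, 3 were most like one of their own number. Between C/-Lop and C/+Lop arrays, however, the correlation was 0.02, 0.05, 0.18 and 0.36 for replicates 1, 2, 3 and 4. Xist was detected on replicates 2 and 3 and not on 1 and 4 in both recipient groups. Whether recipient arrays of the same number belong together is not stated. With the replicate block 12, 0, 1, 3, 11 and 19 genes were called in SPF against GF, C/+Lop against C/-Lop, C/-Lop against GF, C/+Lop against GF, C/-Lop against SPF and C/+Lop against SPF mice.

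With median scaling the median difference of all genes was -0.11 in C/-Lop against GF, -0.17 in C/-Lop against SPF and -0.16 in C/+Lop against SPF mice. With quantile normalization these medians were -0.008, 0.0004 and -0.013. Relative to quantile normalization the split of calls against SPF mice became 1 higher and 11 lower (from 3 and 5) in C/-Lop mice. In C/+Lop mice it became 1 higher and 13 lower (from 3 and 9). Dim probes limit several genes that were undetected on part of the arrays, among them Chst7, Chst3, B4galt4 and B4galnt3. The called genes Galnt15 and Chst2 are also among them, each detected on 14 of 16 arrays.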
